A study of Mus musculus with 32 samples.

Results

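The 10 genes described here are the Toll-like receptors Tlr1, Tlr2, Tlr3, Tlr4, Tlr5, Tlr7, Tlr9 and Tlr13, the adaptor Myd88 and the co-receptor Cd14. They were chosen by symbol from 24411 genes counted in libraries of CD11c-DTR recipients and 24421 genes counted in libraries of CX3CR1-DTR recipients, and all 10 are listed in both tables. In the main experiment, monocytes of Cx3cr1 gfp/+ donors that carry the CD45.1 allotype were transferred into [CD11c-DTR > WT] BM chimeras. These are irradiated WT mice, all on a C57BL/6 background, that received marrow carrying the Itgax-DTR/GFP transgene. Its diphtheria toxin receptor is driven by the Itgax (CD11c) promoter, so that diphtheria toxin (DTx), given before the transfer and on alternate days after it, depletes CD11c-expressing cells of donor marrow origin and spares host cells without the transgene. The groups were the monocyte graft (3 libraries), colonic macrophages of day 4 (3), day 8 (3) and day 12 (4) after transfer, and ileal macrophages of the same days (4 each). The labels of the graft give blood as its organ, name the Itgax-DTR/GFP genotype and state no DTx treatment, whereas the study describes the graft as bone marrow monocytes. The second recipients, CX3CR1-DTR, were [CX3CR1-DTR > WT] BM chimeras in the study's account, again irradiated WT mice given transgenic marrow. Their receptor is tied to Cx3cr1. They gave 6 libraries of colonic macrophages from DTx-treated mice, taken on day 14 as the study states it. The study lists 4 repeats for this set without naming them, so all 6 labelled libraries were used. The labels give the gate DAPI-CD45+CD11b+CD64+Ly6C-MHCII+ for all gut cells, whereas the study describes a sort of graft-derived cells by CD45.1 and CX3CR1 (GFP). The titles of the 6 CX3CR1-DTR libraries read gfp only, which names GFP but not whether other markers of the gate were used. For the CD11c-DTR gut libraries, which of these was applied could not be settled. Ages of the mice at sorting and any pooling of animals were not given in the sources used here.

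Toll-like receptors recognize molecules of microbes. TLR2 with TLR1 binds bacterial lipopeptides, TLR4 with the co-receptor CD14 binds lipopolysaccharide and TLR5 binds flagellin at the cell surface, while TLR3, TLR7, TLR9 and TLR13 sit in endosomes and bind double-stranded RNA, single-stranded RNA, CpG DNA and bacterial ribosomal RNA. MYD88 is the adaptor that carries the signal of all of these receptors except TLR3 to the IRAK kinases and NF-κB. Gut macrophages live beside commensal bacteria and are known for weak inflammatory responses to microbial ligands.

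Libraries of CD11c-DTR recipients held 591817 to 5228664 reads on genes (median 2447862) and those of CX3CR1-DTR recipients 1223772 to 4218027. Levels are given as normalized reads, which are counts per 10000000 mapped reads, and a count of 3, taken as the floor, equals 3.51 to 27.6 normalized reads in the first table. Intervals and floors cover counting error only. Because libraries read the 3′ end of transcripts, levels were compared between groups and never between genes. Nothing in the labels says that replicates came from separate mice, so p-values measure the spread between these libraries. A further colon day 8 library, replicate 1, was left out of the tests because the study lists 3 colon day 8 samples, and its values are named where they are given.

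Markers of other cells moved with the groups. The 10 macrophage and monocyte markers found in the tables (of 11 listed) summed to 73437 to 99355 normalized reads in the graft, to 1952 to 11817 in the colon and to 4746 to 54884 in the ileum. Lyz2, the lysozyme gene, made up 72 to 76.1% of that sum in the graft. All 12 epithelial markers together reached 26.6 to 42.1 normalized reads in the graft, where 9 of them, among them Epcam and Vil1, never passed 3 counts, but 88331 to 124665 in the colon and 16353 to 99754 in the ileum. The 6 B and plasma cell markers found (of 7 listed) summed to 597 to 8428 in the colon and 3281 to 139119 in the ileum, and the 4 endothelial markers to 399 to 2048 in the colon and 361 to 12972 in the ileum. The 7 neutrophil markers, S100a8 and S100a9 among them, summed to 5156 to 9055 in the graft, where Tlr2, Tlr13 and Myd88 were high too, and to 136 to 1201 in the gut. This sum was not split by gene and does not show that neutrophils were present. What part other cells have in the levels below was not tested, and in such bulk libraries fewer cells of a type and less RNA per cell cannot be told apart. The comparisons were therefore also scaled to the summed macrophage and monocyte markers, with and without Lyz2, both chosen after seeing the data. By construction this lifts all genes of the gut, where the marker sum was lower. From the graft the median of all genes stood at 4.83, 4.41 and 4.13 (log2) in colon days 4, 8 and 12 and 3.04, 1.99 and 2.07 in the ileum, without Lyz2 at 3.42, 2.99 and 2.77 and at 1.68, 0.96 and 0.74, and for colon minus ileum at 1.74 to 2.35. Called differences that turned under these scalings, and uncalled ones that turned and passed, are given beside their results.

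Promoters are shown for Tlr13 and Tlr2, receptors whose levels were high in the graft, and for Tlr1, the partner of TLR2, whose level was not. They hold the 250 bases upstream of the start, 5′ to 3′ on the gene's strand, from RefSeq on GRCm38.p6, and each was found once in NCBIM37, the build of the files. Of the 10 genes, 7 had a promoter in the table. Capitals mark GAGGAA, the core of the site of PU.1, the factor that directs the myeloid lineage. Both strands were searched for GAGGAA and for TGAGTCA, a site of AP-1.
Tlr2, chr3:83645531-83645780, minus strand: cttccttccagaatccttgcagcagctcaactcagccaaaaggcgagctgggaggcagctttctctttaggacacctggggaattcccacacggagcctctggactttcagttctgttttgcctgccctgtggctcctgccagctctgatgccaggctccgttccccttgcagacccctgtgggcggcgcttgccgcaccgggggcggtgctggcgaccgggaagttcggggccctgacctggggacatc
Tlr13, chrX:103338364-103338613, plus strand: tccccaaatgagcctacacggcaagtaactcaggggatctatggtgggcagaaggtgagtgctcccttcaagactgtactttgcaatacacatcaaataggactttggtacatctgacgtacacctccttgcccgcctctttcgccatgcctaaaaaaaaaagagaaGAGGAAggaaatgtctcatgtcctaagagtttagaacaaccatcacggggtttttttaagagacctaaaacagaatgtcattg
Tlr1, chr5:65323939-65324188, minus strand: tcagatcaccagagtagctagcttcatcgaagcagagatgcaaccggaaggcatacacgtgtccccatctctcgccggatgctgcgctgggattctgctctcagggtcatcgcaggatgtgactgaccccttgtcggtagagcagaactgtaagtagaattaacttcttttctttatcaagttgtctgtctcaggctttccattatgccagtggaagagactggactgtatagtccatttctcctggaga
GAGGAA was found once in the Tlr13 window and in neither the Tlr2 nor this Tlr1 window, and TGAGTCA was in none of these 3. Of all 32851 RefSeq promoters of this length, 7639 (23.3%) hold GAGGAA and 1466 (4.46%) hold TGAGTCA on either strand. The Tlr2 window has a GC content of 62.8%, that of Tlr13 44.4% and that of Tlr1 49.2%. A second Tlr1 start, 859 bases further upstream, has a window with 1 GAGGAA:
Tlr1 upstream start, chr5:65324798-65325047, minus strand: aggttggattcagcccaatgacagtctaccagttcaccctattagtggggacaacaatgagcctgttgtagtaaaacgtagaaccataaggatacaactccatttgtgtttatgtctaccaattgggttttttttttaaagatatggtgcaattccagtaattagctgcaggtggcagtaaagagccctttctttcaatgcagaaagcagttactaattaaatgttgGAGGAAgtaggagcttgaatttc

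Of the 10 genes, 8 reached 50 normalized reads in at least 3 libraries and were tested among 11842 genes. Tlr5 and Tlr9 did not. The question of the first comparison was how the transcriptome of monocytes changes once they enter the gut. Tlr2, Tlr13 and Myd88 were below the graft and Tlr3 was above it in both segments on every day, whereas Tlr1 was above it on every day in the colon and on days 4 and 12 in the ileum, but scaled to macrophage markers Myd88 turned in all 6 comparisons, Tlr2 in 4 and Tlr13 in the 3 ileal ones. Under both marker scalings all 3 stayed below the median of all genes in each comparison. In the colon 5, 6 and 5 of the 8 genes changed on days 4, 8 and 12, beside 60.6, 59.0 and 63.0% of all genes tested. In the ileum 6, 4 and 7 changed, beside 56.8, 53.9 and 56.3% of all genes. The 3 lower genes each time stand beside 25.5, 24.2 and 26.4% of all genes that were lower in the colon and 21.1, 20.2 and 21.4% in the ileum. The higher ones numbered 2, 3 and 2 in the colon, beside 35.1, 34.8 and 36.6% of all genes, and 3, 1 and 4 in the ileum, beside 35.6, 33.7 and 34.9%. The 3 lower genes were the same in all 6 comparisons, which share the graft libraries, so these are not 6 separate results. With 3 of 8 genes beside these shares, no excess of lower genes is read from the counts. The share that was higher lay on either side of the background. Most genes moved in these comparisons, and the median of all genes was itself shifted by 0.17 to 0.20 (log2). Libraries did not overlap the graft for 6, 8 and 5 of the 8 genes in colon days 4, 8 and 12. Of all genes this held for 72.9, 72.7 and 67.5%. In the ileum it held for 4, 3 and 4 of the 8, beside 58.3, 60.6 and 66.0% of all genes. A lack of overlap with the graft is thus no trait of these genes.

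**Figure D1:**
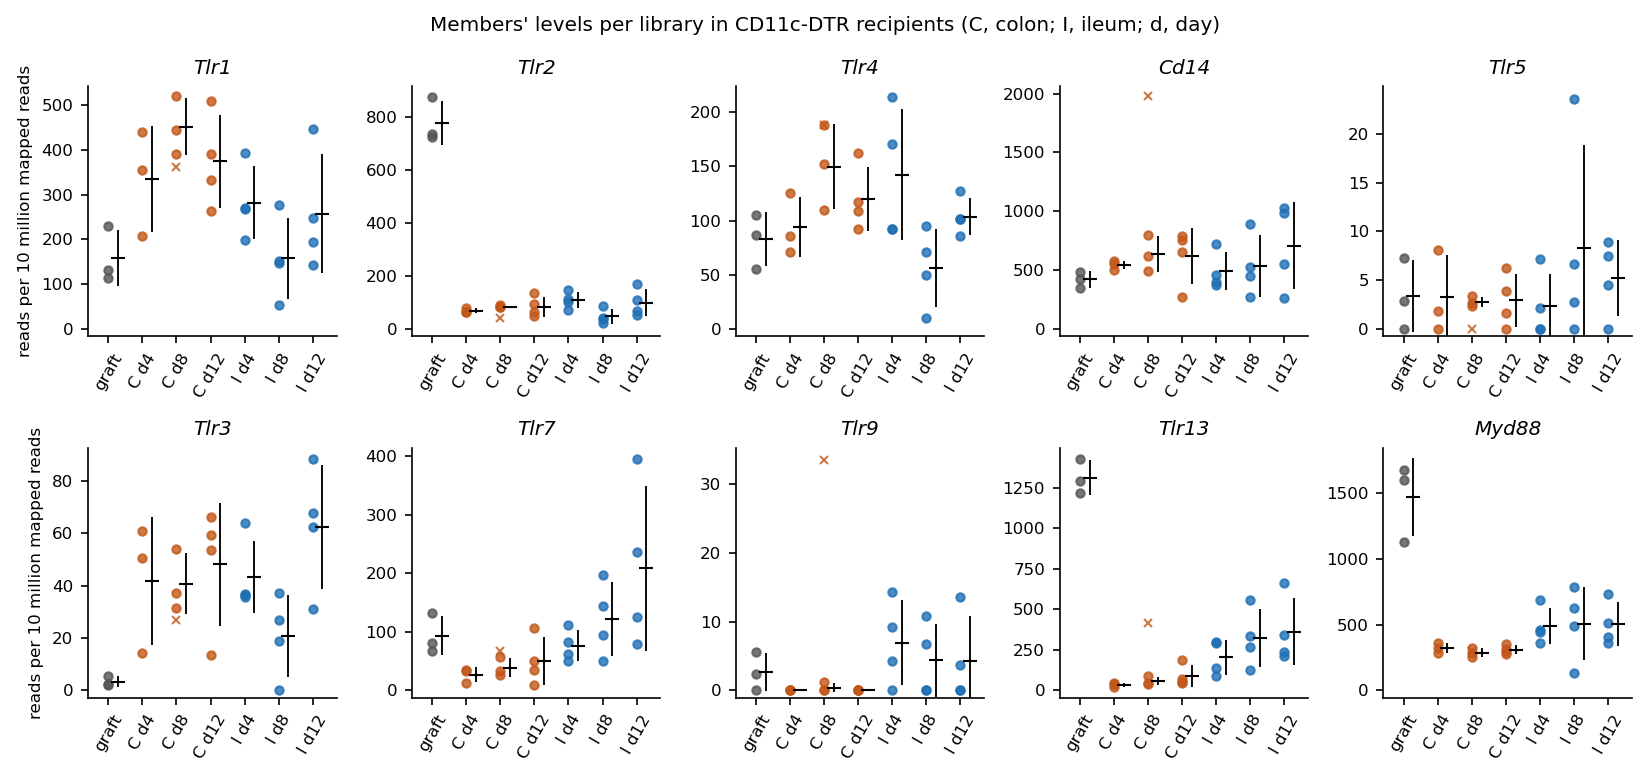
Reads per 10000000 mapped reads of the 10 genes in each CD11c-DTR library, with group mean ± SD in black (cut off where it reaches below the axis) and the left-out colon day 8 replicate 1 as a cross. Tlr2, Tlr13 and Myd88 are high in the 3 graft libraries, at 727 to 876, 1218 to 1429 and 1129 to 1679.9, and lower in every gut library on this scale (turned for Myd88, for Tlr2 in the colon and ileum day 4, and for Tlr13 in the ileum when scaled to macrophage markers), while Tlr3 is at 1.94 to 5.61 in the graft.

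Among the receptors at the cell surface, Tlr2 (chr3:83640194-83645530, minus strand) had 876, 727 and 736 normalized reads in the 3 graft libraries. In the colon it had 62.7, 62.3 and 79.3 on day 4, 81, 88.7 and 84.3 on day 8, and 62.3, 93.4, 47.5 and 134 on day 12. In the ileum it had 72.6, 149, 101 and 114 on day 4, 86.7, 40.5, 36.8 and 23.8 on day 8, and 67.9, 52.6, 109 and 170.0 on day 12. No gut library reached the lowest graft library, and the group means ran from 779.5 ± 83.5 in the graft (SD, n = 3) to 47 ± 27.5 in ileum day 8 (n = 4). Tlr2 fell, with log2 differences from the graft of −3.21, −2.96 and −2.90 in the colon and −2.42, −3.52 and −2.47 in the ileum (edgeR, adjusted p 2.07e-07 to 1.69e-05), but scaled to the macrophage markers it turned to 1.41, 1.28 and 0.98 above the graft in the colon and 0.54 above it in ileum day 4. Without Lyz2 among the markers no fall of Tlr2 turned. Those of the colon (−0.01, −0.16 and −0.40) and of ileum day 4 (−0.83) then no longer passed (edgeR, adjusted p 0.26 to 0.987). With Lyz2 the fall in ileum day 12 did not pass either (−0.50, adjusted p 0.484). Ordered by mean, the graft differed from ileum day 4 next to it, and no 2 neighbours among the 6 gut groups differed (adjusted p of 0.373 or more).

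Tlr1 (chr5:65315919-65323938, minus strand), the partner of TLR2 for triacylated lipopeptides, went the other way. Its graft libraries had 132, 229 and 114 normalized reads. The colon had 441, 208 and 356 on day 4, 392, 444 and 519.7 on day 8, and 509.9, 392, 264 and 333 on day 12. The ileum had 198, 393, 267 and 271 on day 4, 277, 148, 151 and 54.4 on day 8, and 446, 248, 143 and 194 on day 12. All colon libraries of days 8 and 12 were above the highest graft library, while 1 of 3 on day 4 was below it and the ileal groups overlapped the graft. Tlr1 rose in the colon by 1.36 ± 0.42 on day 4, 1.75 ± 0.42 on day 8 and 1.51 ± 0.40 on day 12 (log2 ± SE, adjusted p 0.000956 to 0.00726). In the ileum it rose by 1.24 on day 4 (adjusted p 0.0114) and 1.15 on day 12 (0.0162), and on day 8 the difference was 0.48 ± 0.40 (0.322). The day 12 rise was lost without graft replicate 3 (adjusted p 0.0586) or ileum day 12 replicate 1 (0.68, adjusted p 0.117), and the day 4 rise in the 2 ileal libraries of experiment 2 alone (0.90, adjusted p 0.12). Scaled to library totals, neither ileal rise of Tlr1 passed (0.70 and adjusted p 0.152 on day 12). Tlr1 lies beside its paralog Tlr6 with near-identical stretches of sequence. Only uniquely mapping reads were counted, so how the reads were split between them is uncertain.

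Tlr4 (chr4:66488585-66507615, plus strand), the receptor of lipopolysaccharide, had 87, 105 and 55.7 normalized reads in the graft. The colon had 125, 86 and 71.2 on day 4, 152, 109.6 and 188 on day 8, and 117, 162, 92.6 and 109 on day 12. The ileum had 92.4, 171, 92.2 and 214 on day 4, 94.9, 70.8, 50.2 and 10.2 on day 8, and 127, 101, 85.8 and 101 on day 12. Colon day 8 was the single group whose libraries all lay above the graft. Tlr4 passed the test there (1.11 ± 0.41, adjusted p 0.0218) and in ileum day 4 (1.17 ± 0.40, 0.0149). The first call was lost without graft replicate 3 (0.94, adjusted p 0.0821) or colon day 8 replicate 4 (0.85, adjusted p 0.119), and the second without graft replicate 3 (1.00, 0.0619). Neither passed with scaling to library totals. On day 12 the differences of 0.82 in the colon and 0.77 in the ileum did not pass (edgeR, adjusted p 0.0676 and 0.0952). They passed in 8 and 4 of 36 alternatives, DESeq2 among them. The colonic one also passed in the fit with the CX3CR1-DTR libraries (edgeR, 1.05, adjusted p 0.0342). In ileum day 8 Tlr4 stood at −0.06 (adjusted p 0.919), turning to 1.58 (0.0348) under scaling to macrophage markers. Replicate 4 of that group, at 3 counts, was also the lowest of its group for Tlr1, Tlr2, Tlr3, Tlr7, Tlr13, Myd88 and Cd14.

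Cd14 (chr18:36884718-36886469, minus strand), whose protein passes lipopolysaccharide to TLR4, had 488, 422 and 351 normalized reads in the graft. Its gut levels were 504 to 575 in colon day 4, 496 to 800.3 in colon day 8, 275 to 794 in colon day 12, 376 to 726 in ileum day 4, 269 to 889 in ileum day 8 and 259 to 1032 in ileum day 12. The libraries of colon days 4 and 8 all lay above the graft, and all other groups overlapped it. The differences of 0.67 to 0.83 in the colon and of 0.64 and 0.84 in ileum days 4 and 8 did not pass (adjusted p 0.0809 to 0.194). Ileum day 12 did, at 1.24 ± 0.41 (adjusted p 0.0136), with 3 of 4 libraries above the graft mean, but not without its replicate 4 (0.96, adjusted p 0.0604) or with scaling to library totals. The left-out colon day 8 library had 1979 normalized reads of Cd14, and its macrophage markers summed to 36126.

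Tlr5 (chr1:184884919-184906175, plus strand), the flagellin receptor, gave 40 counts in all over 25 CD11c-DTR libraries. It was at 0 in 7 libraries and above 3 counts in 3, with a highest value of 7 counts in ileum day 8 replicate 2. No difference between groups was detectable at this depth.

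Of the endosomal receptors, Tlr3 (chr8:46481019-46495893, minus strand), which senses double-stranded RNA and signals through the adaptor TICAM1, did not pass the floor in the graft. Graft libraries held 2, 1 and 1 counts, or 5.61, 1.94 and 2.42 normalized reads. The colon had 60.9, 50.4 and 14.2 on day 4, 37.1, 31.3 and 53.8 on day 8, and 13.6, 59.2, 53.6 and 66 on day 12. The ileum had 36.3, 64, 36.9 and 35.7 on day 4, 19, 37.1, 26.8 and 0 on day 8, and 88.3, 67.7, 62.4 and 31.05 on day 12. Every gut library except ileum day 8 replicate 4 was above every graft library. Pooled counts were 13.4, 14.5 and 15.6 times those of the graft in the colon and 15.8, 6.64 and 18.5 times in the ileum on days 4, 8 and 12. Their exact 95% intervals were wide, from 2.3 to 26.2 in ileum day 8 and from 7.02 to 69.3 in ileum day 12. Tlr3 rose in all 6 comparisons (edgeR, adjusted p 5.12e-05 to 0.00532). It stayed above the graft on day 12 under all 4 scalings drawn in the plot of scalings. The marker scalings lift all genes, with medians of 4.13 in colon day 12 and 2.07 in ileum day 12. Tlr3 then stood at 7.64 and 5.96. Without Lyz2 it stood at 6.46 and 4.83, against medians of 2.77 and 0.74.

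Tlr13 (chrX:103338614-103355832, plus strand), the mouse receptor of bacterial ribosomal RNA, had 1218, 1290.4 and 1429 normalized reads in the graft. The colon had 19.7, 44.5 and 38.6 on day 4, 87.8, 41.8 and 46.8 on day 8, and 46.7, 189.9, 51.2 and 67.6 on day 12. The ileum had 294, 89.7, 138 and 299.6 on day 4, 336, 556, 268 and 126 on day 8, and 661, 237, 211 and 340.1 on day 12. No gut library came near the graft, and most colonic libraries lay below every ileal one. Tlr13 fell, with log2 differences of −4.98, −4.29 and −3.64 in the colon (adjusted p 5.83e-07 to 2.32e-06), a fall that no longer passed under scaling to macrophage markers (−0.46, −0.19 and −0.03) but did without Lyz2 among them. It also fell in the ileum, with −2.29, −1.57 and −1.38 (adjusted p 0.000485, 0.00856 and 0.0174), where the same scaling turned it to 0.25, 0.13 and 0.14 above the graft and none passed without Lyz2. Colon day 12 replicate 2 stood apart, and without it the difference of colon day 12 was −4.25. The ileum day 12 fall was lost without graft replicate 3 (adjusted p 0.0611) or ileum day 12 replicate 2 (0.0561) or 3 (0.059). Ordered by mean, the graft was highest, then ileum days 12, 8 and 4, then colon days 12, 8 and 4. The graft and ileum day 12 were the one pair of neighbours that differed (adjusted p 0.0174).

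Tlr7 (chrX:163742858-163768503, minus strand), the receptor of single-stranded RNA, had 132, 81.4 and 67.8 normalized reads in the graft. The colon had 12.5, 35.6 and 32.5 on day 4, 57.4, 26.096 and 33.9 on day 8, and 9.73, 106, 34.1 and 49.5 on day 12. The ileum had 82.5, 61.9, 111 and 49.9 on day 4, 198, 94.4, 144 and 51 on day 8, and 396, 78.9, 125 and 237 on day 12. The colon libraries of days 4 and 8 were all below the graft, but the differences of −1.51 and −1.04 did not pass (edgeR, adjusted p 0.0649 and 0.186). Nor did that of −0.64 on day 12 (0.367). The day 4 fall did pass with library totals, the equal-variance test, the compared groups alone or a replicate block by experiment. It also passed without colon day 12 replicate 1 or ileum day 12 replicate 1. The day 8 fall passed with the compared groups alone. Scaled to macrophage markers, Tlr7 turned to 2.98, 3.07 and 2.97 above the graft on the 3 days in the colon (adjusted p 0.000163 to 0.000283), and without Lyz2 to 1.53, 1.63 and 1.61 (0.0212 to 0.0363). In the main fit the difference in ileum day 12 did pass, at 1.67 ± 0.60 (adjusted p 0.0215), with 3 of 4 libraries above the graft mean. It did not pass without graft replicate 2 (adjusted p 0.0639), graft replicate 3 (0.071) or ileum day 12 replicate 1 (0.108). Tlr9 (chr9:106124929-106129207, plus strand), the CpG DNA receptor, gave 22 counts over the 25 libraries, 15 of them at 0. It had no count in the libraries of colon days 4 and 12, which allows up to 5.38 to 8.89 and 3.65 to 9.34 normalized reads, and 5 counts (33.5 normalized reads) in the left-out colon day 8 library.

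Myd88 (chr9:119245106-119249158, minus strand), the shared adaptor, had 1600.0, 1679.9 and 1129 normalized reads in the graft. The colon had 324, 285 and 359.9 on day 4, 284, 321 and 254 on day 8, and 356, 289.6, 313 and 279 on day 12. The ileum had 462, 363, 442 and 685 on day 4, 624, 785, 492 and 136 on day 8, and 734, 515, 359 and 404 on day 12. No gut library reached the graft. The 10 colonic libraries stayed between 254 and 359.9, while the ileal ones spread from 136 to 785. Myd88 fell, with log2 differences of −1.89, −2.13 and −1.95 in the colon (adjusted p 1.26e-05 to 6.77e-05) and −1.20, −1.07 and −1.10 in the ileum (0.0026 to 0.00598), but scaled to the macrophage markers it stood 2.79, 2.11 and 2.05 above the graft in the colon and 1.52, 0.62 and 0.61 above it in the ileum. Without Lyz2 these became 1.37, 0.67 and 0.68 in the colon and 0.16 in ileum day 4, with ileum days 8 and 12 still below the graft but uncalled.

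**Figure D2:**
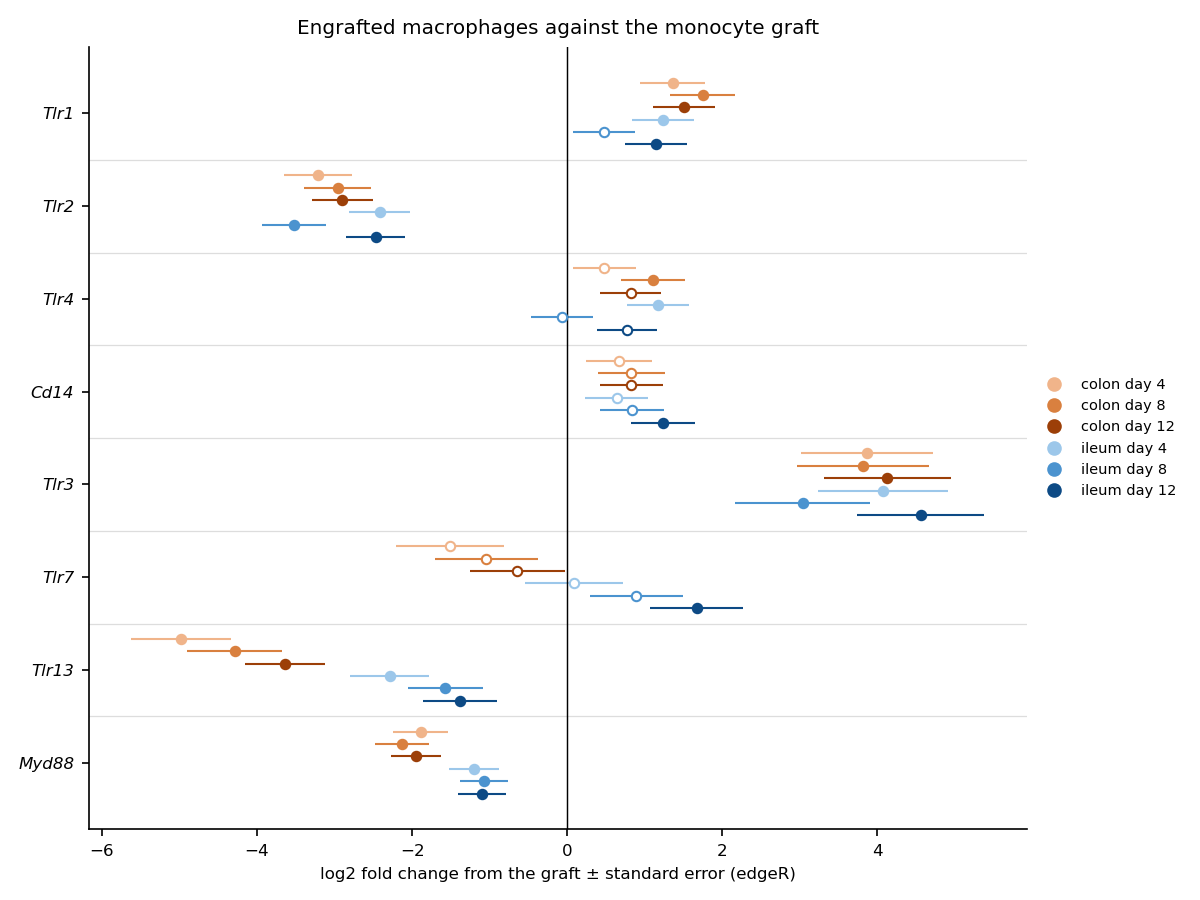
log2 fold change ± SE (edgeR) of the 8 tested genes from the graft to each gut group, filled where the adjusted p is under 0.05 and open where it is not. Tlr2, Tlr13 and Myd88 lie to the left in all 6 comparisons, directions that turn for Tlr2 in the colon and ileum day 4, for Tlr13 in the ileum and for Myd88 in all 6 under scaling to macrophage markers, while Tlr3 lies to the right at 3.04 to 4.56.

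**Figure D3:**
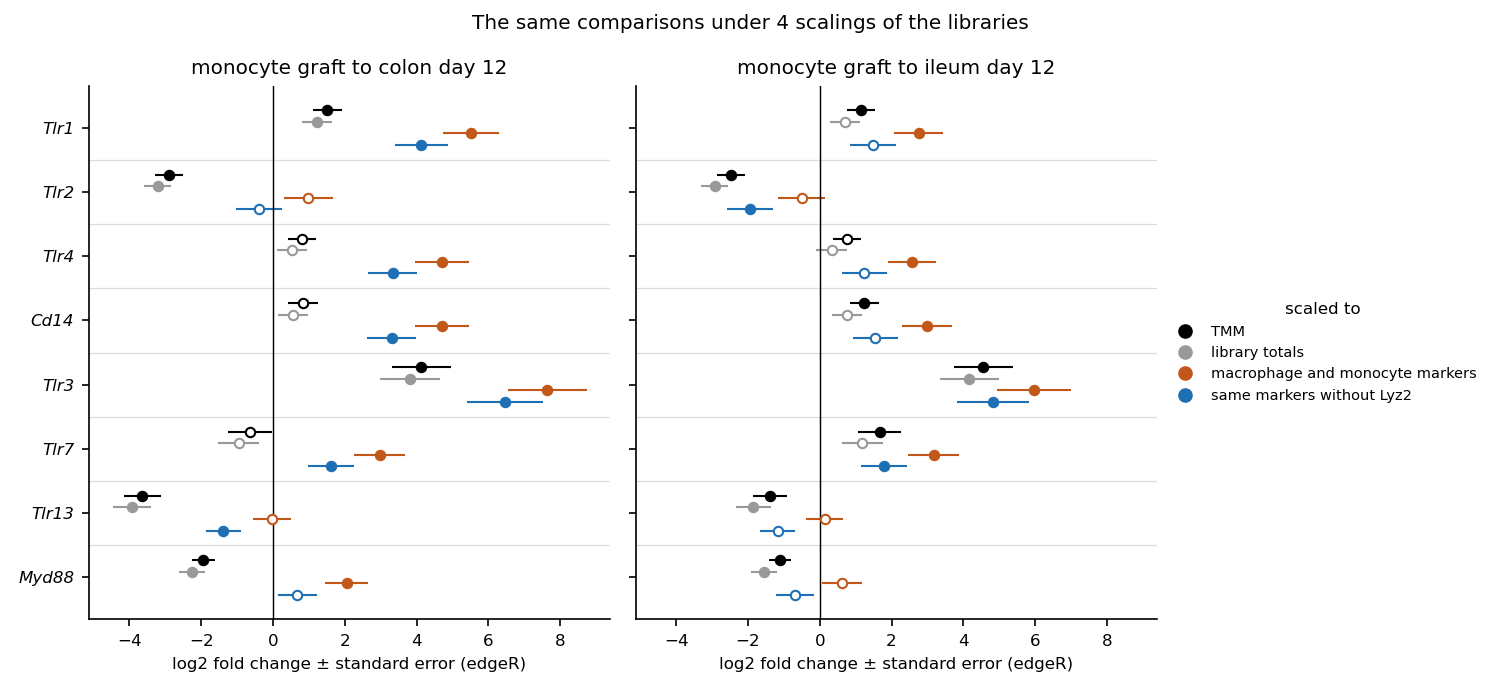
log2 fold change ± SE (edgeR) from the graft to colon day 12 and ileum day 12 under 4 scalings, TMM, library totals, and the summed macrophage and monocyte markers with and without Lyz2, filled where the adjusted p is under 0.05. Tlr1 and Tlr3 stay to the right under all 4, though the marker scalings lift all genes. The medians of all genes are then 4.13 and, without Lyz2, 2.77 in colon day 12 and 2.07 and 0.74 in ileum day 12. Tlr1 in ileum day 12 is open with library totals and with markers without Lyz2. Myd88 in colon day 12 moves from −1.95 to 2.05 and Tlr2 from −2.90 to 0.98.

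The next question was whether the genes went on changing between days 4, 8 and 12. None of the 8 passed between days 4 and 8, 8 and 12 or 4 and 12 in either segment. In the colon no gene at all passed (0% of 11842), and in the ileum 5.14, 0 and 2.63% of all genes did (higher on the later day 0.692, 0 and 0.287%, lower 4.45, 0 and 2.34%). At an unadjusted p under 0.05 (edgeR), 0, 0 and 1 of the 8 (Tlr13 between days 4 and 12) differed in the colon. This stood beside 202, 340 and 239 of all 11842 genes. In the ileum 2 did between days 4 and 8 (Tlr4 and Tlr2), beside 2566 of all genes. Between days 8 and 12 there were 3 (Tlr2, Tlr3 and Tlr4), beside 788, and between days 4 and 12 there was 1 (Tlr7), beside 2129. DESeq2 called 1 of these, Tlr4 between ileum days 4 and 8, where edgeR gave −1.23 ± 0.38 (adjusted p 0.0602), and no other. Scaled to macrophage markers, Tlr1, Tlr2, Tlr3 and Tlr4 were lower on ileum day 8 than on day 4 (adjusted p 0.00932 to 0.0462), as were Tlr2 and Tlr4 without Lyz2. Tlr7 in the ileum had means of 76.2, 122 and 209 on days 4, 8 and 12, and the difference between days 4 and 12 was 1.58 ± 0.58 (adjusted p 0.144). For Tlr13 in the colon the means were 34.3, 58.8 and 88.9, with a difference of 1.34 ± 0.59 (adjusted p 1).

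Colon and ileum were then compared on each day. Tlr13, Tlr7 and Myd88 were lower in colonic than in ileal libraries on days 8 and 12, and Tlr13 also on day 4. Tlr1 and Tlr4 were higher in the colon on day 8. Scaled to macrophage markers, none of the lower calls held. Myd88 turned on days 8 and 12 and Tlr7 on day 8, while Tlr13 on each day and Tlr7 on day 12 no longer passed. In all 1, 5 and 3 of the 8 genes differed on days 4, 8 and 12, beside 3.10, 34.9 and 32.5% of all genes tested. Lower in the colon were 1, 3 and 3, beside 2.62, 18.0 and 17.3% of all genes, and higher were 0, 2 and 0, beside 0.481, 16.9 and 15.3%.

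Tlr13 differed by −2.69 ± 0.60 on day 4 (adjusted p 0.0325), −2.71 ± 0.57 on day 8 (0.0012) and −2.26 ± 0.49 on day 12 (0.00157), with no overlap of the segments on any day, and did not pass on any day under either marker scaling (−0.76 to −0.17). Non-overlap was seen in 14.2, 39.3 and 30.5% of all genes. Colon day 4 libraries came from experiments 2 and 3 and ileum day 4 libraries from experiments 1 and 2. The dates in the labels give these 3 experiments, with the year of 1 ileum day 8 library read as a slip. With the ileal libraries of experiment 2 alone the day 4 difference was −3.21 (adjusted p 0.000828), and with experiment as a block −2.93 (0.00808). It did not pass without any one of colon day 4 replicates 1, 2 and 3 or ileum day 4 replicates 1 and 4 (adjusted p 0.0835 to 0.159). On day 12 it was −2.87 without colon replicate 2. With the left-out colon day 8 library added, whose Tlr13 was at 416 normalized reads, the day 8 difference was −1.26 (adjusted p 0.166) and that of day 4 no longer passed (0.106).

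Tlr7 differed by −1.93 ± 0.65 on day 8 (adjusted p 0.0239), which turned to 0.50 under scaling to macrophage markers and 0.21 without Lyz2, and by −2.30 ± 0.57 on day 12 (0.00376), which did not pass under either (−0.20 and −0.18). Markers of plasmacytoid dendritic cells, which also express TLR7, summed to 583 to 971 normalized reads in the colon and 547 to 4159.9 in the ileum, and their part in this difference was not tested. Its day 8 call was lost without colon replicate 3 (0.0922), colon replicate 4 (0.0874) or ileum replicate 1 (0.0773). Myd88 differed by −1.05 ± 0.33 on day 8 (adjusted p 0.0165) and −0.85 ± 0.30 on day 12 (0.0318), which turned to 1.49 and 1.44 under scaling to macrophage markers and to 1.23 and 1.37 without Lyz2. Its day 8 call was lost without colon replicate 4 (0.0667) or ileum replicate 2 (0.0534), and its day 12 call without colon replicate 1, 2 or 4 or ileum replicate 1 (0.0651 to 0.179). Scaled to library totals neither Myd88 call held (−0.83, adjusted p 0.0778, and −0.70, adjusted p 0.115), and pairing the segments by date and number in a replicate block ended that of day 8 (−0.94, adjusted p 0.082). On day 4 Myd88 stood at −0.69 (0.224), turning to 1.27 (0.0397) with the marker scaling and 1.21 (0.0479) without Lyz2. On day 12 all 4 colonic libraries had less Myd88 than any ileal one.

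Tlr1 (1.27 ± 0.38, adjusted p 0.0133) and Tlr4 (1.17 ± 0.39, 0.0225) did not overlap between the segments on day 8. Both calls were lost without colon day 8 replicate 4 (0.067 and 0.136), and that of Tlr4 with the replicate block by date and number (1.13, adjusted p 0.152). On days 4 and 12 the differences were 0.11 and 0.35 for Tlr1 and −0.69 and 0.05 for Tlr4 (adjusted p 0.31 to 0.937). Tlr2, Tlr3 and Cd14 did not pass on any day, with differences between −0.80 and 0.78. Scaled to macrophage markers Cd14 turned to 2.41 on day 8 (adjusted p 0.00107) and 1.72 on day 12 (0.00898), Tlr2 to 1.48 (0.033) and Tlr3 to 1.68 (0.0361) on day 12, and the turned values passed without Lyz2 too. The change of the colon to ileum difference between days was itself tested. None of the 8 genes passed for days 4 to 8, 8 to 12 or 4 to 12, as was true of all 11842 genes (0%). At an unadjusted p under 0.05 (edgeR) there were 3, 1 and 0 of the 8, beside 1495, 490 and 748 of all genes. DESeq2 called 1, Tlr4 between days 4 and 8, where edgeR gave 1.86 ± 0.55 (adjusted p 0.166). That Tlr1 and Tlr4 differed on day 8 alone is thus not shown.

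**Figure D4:**
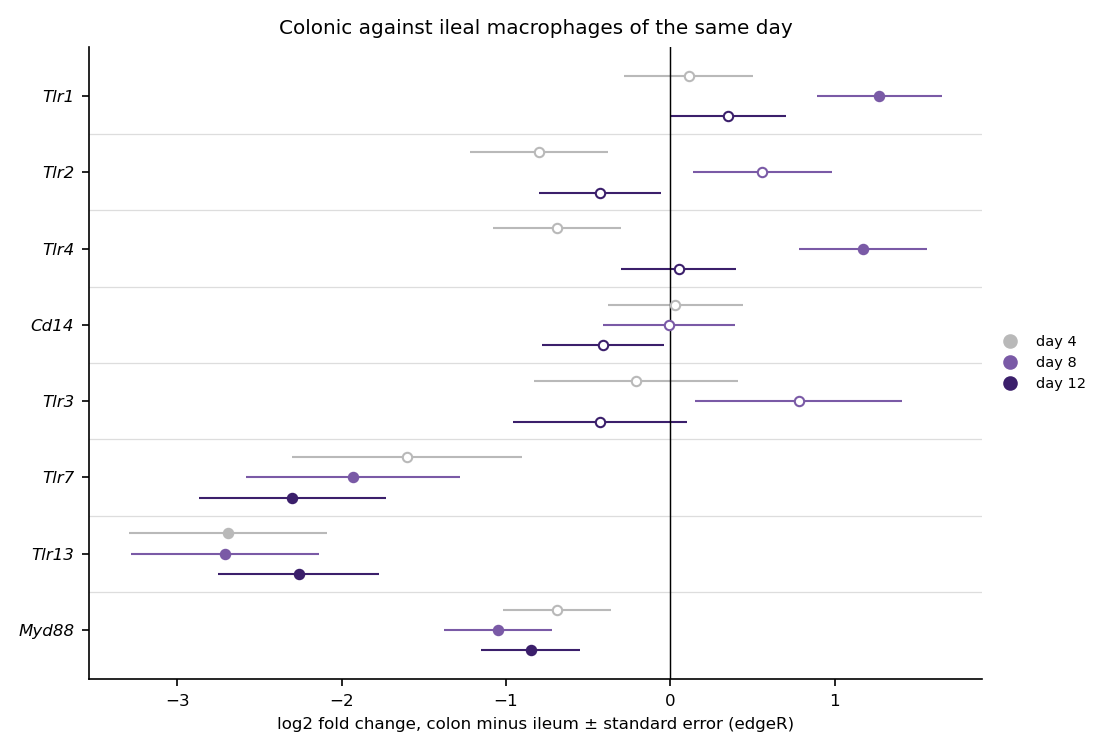
log2 fold change ± SE (edgeR), colon minus ileum, of the 8 tested genes on each day, filled where the adjusted p is under 0.05 and open where it is not. Tlr13 lies at −2.26 to −2.71 on all 3 days, Tlr7 and Myd88 lie to the left too (Myd88 on all 3 days and Tlr7 on days 4 and 8 turn under scaling to macrophage markers, as do Tlr2, Tlr3 and Tlr4 on day 4, Cd14 on day 8, and Tlr2, Tlr3 and Cd14 on day 12), and Tlr1 and Tlr4 lie to the right on day 8. Under that scaling Tlr13 on all 3 days and Tlr7 on day 12 do not pass.

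The other genes of the pathway were taken from a list of 44, of which 39 passed the filter. In colon day 12, 8 were above the graft and 20 below it, beside 36.6 and 26.4% of all genes, and the list's median was −0.81 against 0.19 for all genes. In ileum day 12, 8 were above and 12 below, beside 34.9 and 21.4% of all genes, with a median of −0.04 against 0.17. Under scaling to macrophage markers these became 34 above and 0 below in the colon and 23 and 0 in the ileum, and without Lyz2 27 and 1 and 7 and 1. Of all genes, 94 and 71.2% were then above the graft and 1.03 and 1.21% below it, and without Lyz2 83.3 and 29.2% above and 2.47 and 4.16% below. By role, in colon day 12 the kinases and ligases had 2 higher and 7 lower of 15, folding, transport and cleavage 2 and 4 of 9, adaptors 0 and 2 of 3, and inhibitors 2 and 3 of 6. Between the segments on day 12, 0 were higher and 15 lower in the colon, beside 15.3 and 17.3% of all genes, which became 24 higher and 0 lower under either marker scaling, beside 78.2 and 77.5% of all genes higher.

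Of the other receptors, Tlr12, a receptor of protozoan profilin, had 1, 0 and 2 counts in the graft. It had 42.9 to 769 normalized reads in colon day 12 and 709.8 to 2409 in ileum day 12. Its pooled counts were 86.9 times (exact 95% interval 29.6 to 423) and 522 times (178 to 2531) those of the graft. Tlr12 stayed above the graft under all 4 scalings. Under the marker scaling, which lifts all genes, it stood at 9.78 in colon day 12 and 10.37 in ileum day 12. The median of all genes was then 4.13 and 2.07. Tlr8, beside Tlr7 on the X chromosome, had 177 to 481 normalized reads in the graft and stood at −3.71 in colon day 12 (adjusted p 0.00017) and −1.92 in ileum day 12 (0.0205), neither of which passed under the marker scalings. Tlr6, which pairs with TLR2 for diacylated lipopeptides, stood at −1.82 in colon day 12 (adjusted p 0.00864), turning to 1.92 with the marker scaling and 0.59 without Lyz2, and at 0.33 in ileum day 12 (0.635). Tlr11 did not pass the filter.

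The largest rises besides Tlr12 were those of Cd36, a scavenger receptor that assists TLR2, with 3.39 in colon day 12 and 4.82 in ileum day 12, Tnfaip3, the ubiquitin-editing inhibitor A20, with 2.09 and 3.19, and Lgmn, an endosomal protease, with 1.64 and 3.19. All of them stayed above the graft under the 4 scalings, of which the marker scalings lift all genes. Under these they also stood above the median of all genes, which was 4.13 in colon day 12 and 2.07 in ileum day 12. Without Lyz2 it was 2.77 and 0.74. Lgmn came nearest in the colon, at 5.33 and, without Lyz2, 3.96. The largest falls were those of Ticam2, the adaptor that links TLR4 to TICAM1, with −5.07 in colon day 12 and −3.02 in ileum day 12, and of Tlr8, Irak3 and Lbp. Ticam2 went from 295 to 356 normalized reads in the graft to 5.84 to 9.9 in colon day 12, and stayed below the graft under all 4 scalings, though uncalled when Lyz2 was among the markers. Irak3, an inhibitory IRAK family member, stood at −3.13 and −2.45, turning to 0.81 in the colon with the marker scaling. Lbp, the lipopolysaccharide binding protein, stood at −2.79 and −2.53, turning to 1.15 in the colon likewise.

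Genes most like the 8 in their levels over the 25 libraries were named by Pearson's r of log2(normalized reads + 50), a description across libraries that share the graft and gut groups and their depths. Tlr13 was most like Pirb and Cybb (r = 0.98 for both), Tlr2 like Asap1 (0.96) and F13a1 (0.94), and Myd88 like Nfam1 and B430306N03Rik (0.95 for both). Tlr7 was most like Kctd12 (0.95) and Ccr1 (0.9), Tlr1 like Ghitm and Vmp1 (0.87 for both), and Tlr4 like Snx13 (0.87) and Nbr1 (0.85). The nearest genes to Tlr3 were Usmg5 (0.83) and Gm12191 (0.81), and those to Cd14 were P2rx4 and Fth1 (0.66 for both), the lowest values of the 8.

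The second recipient was compared to ask whether colonic macrophages look alike after another way of emptying the niche. Here values are per 10000000 reads on genes, and recipient, table and day cannot be told apart. The libraries labelled CX3CR1-DTR colon held 3 to 7 counts of Ptprc, which encodes the CD45 named in the gate of the labels. They held 919 to 2042 counts of C1qa, a marker of mature macrophages, and 384 to 3535 counts of Epcam. Their macrophage markers summed to 2939.9 to 6749.6 and their epithelial markers to 153337 to 219927. Of the 8 tested genes, 5 were below the graft (Tlr1, Tlr2, Tlr7, Tlr13 and Myd88) and 0 above it. This stood beside 36.0 and 39.5% of the 11718 genes tested (75.5% in either direction). Of the 5, Myd88, Tlr2 and Tlr1 turned under scaling to macrophage markers. That scaling put 84.3% of all genes above the graft, with a median of 4.61, and without Lyz2 the median was 3.13. All 3 turned genes stayed below these medians. From colon day 12 the medians were 0.67 and 0.53. Against colon day 12 of CD11c-DTR recipients 5 were lower (Tlr1, Tlr3, Tlr4, Tlr7 and Tlr13) and 0 higher, beside 35.4 and 25.2% of all genes (60.7% in either direction).

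Tlr1 was the clearest of these. It had 0 to 11 counts in the 6 libraries, 15 in all, and 0, 5.6 and 26.08 reads per 10000000 as lowest, median and highest. Its level was 227 ± 85 in the graft (SD, n = 3) and 619 ± 117 in colon day 12 (n = 4), and 7.73 ± 9.7 here (n = 6), with no overlap. Of all genes, 69.5% did not overlap between these libraries and the graft, and 50.1% between them and colon day 12. Pooled counts in colon day 12 were 59.7 times higher (exact 95% interval 36 to 107) and in the graft 23.6 times higher (14 to 42.9). Tlr1 differed by −4.24 ± 0.53 from the graft (adjusted p 4.76e-06), turning to 0.18 under scaling to macrophage markers, and by −5.98 ± 0.50 from colon day 12 (2.1e-07), which did not turn. Replicate 5 held 11 of the 15 counts, and without it the differences were −5.47 and −7.21.

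Tlr7 had 5 counts in all, none of its libraries above 3, against pooled levels 39 times higher in the graft (16.3 to 122) and 21.5 times higher in colon day 12 (8.92 to 67.8). Its difference from the graft was −4.91 ± 0.77 (edgeR, adjusted p 4.21e-05). This shrank to −0.61 (0.485) under scaling to macrophage markers and still passed without Lyz2 among them. Tlr3 had 12 counts, 9 of them in replicate 5, and a median of 3.62. It differed by −3.46 ± 0.64 from colon day 12 (adjusted p 0.00032), and by −4.74 without replicate 5, but by 0.92 ± 1.02 from the graft (0.422). Tlr4 had 8.17, 59.2 and 74.9 as lowest, median and highest, −1.91 ± 0.34 from colon day 12 (0.000243) and −0.85 ± 0.38 from the graft (0.0536). The latter passed in 11 of 20 alternatives, among them DESeq2 and, turned to 3.69 (4.75e-06) and 2.20 without Lyz2 (0.00259), both marker scalings. Tlr13 had 13.7, 47.2 and 98.1, −5.04 ± 0.49 from the graft (3.43e-07) and −1.66 ± 0.48 from colon day 12 (0.00814), the latter −1.04 (0.047) without colon day 12 replicate 2. With the marker scaling neither difference of Tlr13 passed (−0.65 and −0.62), nor did that of Tlr4 from colon day 12 (−1.01, adjusted p 0.081), whereas those of Tlr1, Tlr3 and Tlr7 from colon day 12 did (−5.32, −2.70 and −3.59). Tlr5 had no count, which allows up to 7.11 to 24.5, and Tlr9 had 3.

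Tlr2, Cd14 and Myd88 did not pass against colon day 12. Tlr2 had 32.7, 113 and 132 as lowest, median and highest and was below the graft by −3.24 ± 0.36 (adjusted p 1.23e-06), turning to 1.30 under scaling to macrophage markers. Against colon day 12 it stood at −0.58 ± 0.35 (0.172). Myd88 lay in a narrow range of 489.9 to 642, 582 ± 54.8 (SD, n = 6) beside 517 ± 30.7 in colon day 12 (n = 4) and 2117 ± 413 in the graft (n = 3). It differed by 0.14 ± 0.16 from colon day 12 (adjusted p 0.469) and by −1.58 ± 0.17 from the graft (9.52e-07), turning to 2.96 under scaling to macrophage markers and 1.45 without Lyz2. Cd14 spread from 49 to 1079 with a median of 683, and differed by −0.63 ± 0.47 from colon day 12 (0.262) and 0.43 ± 0.53 from the graft (0.471). A p that misses the threshold does not show that the levels were alike.

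**Figure D5:**
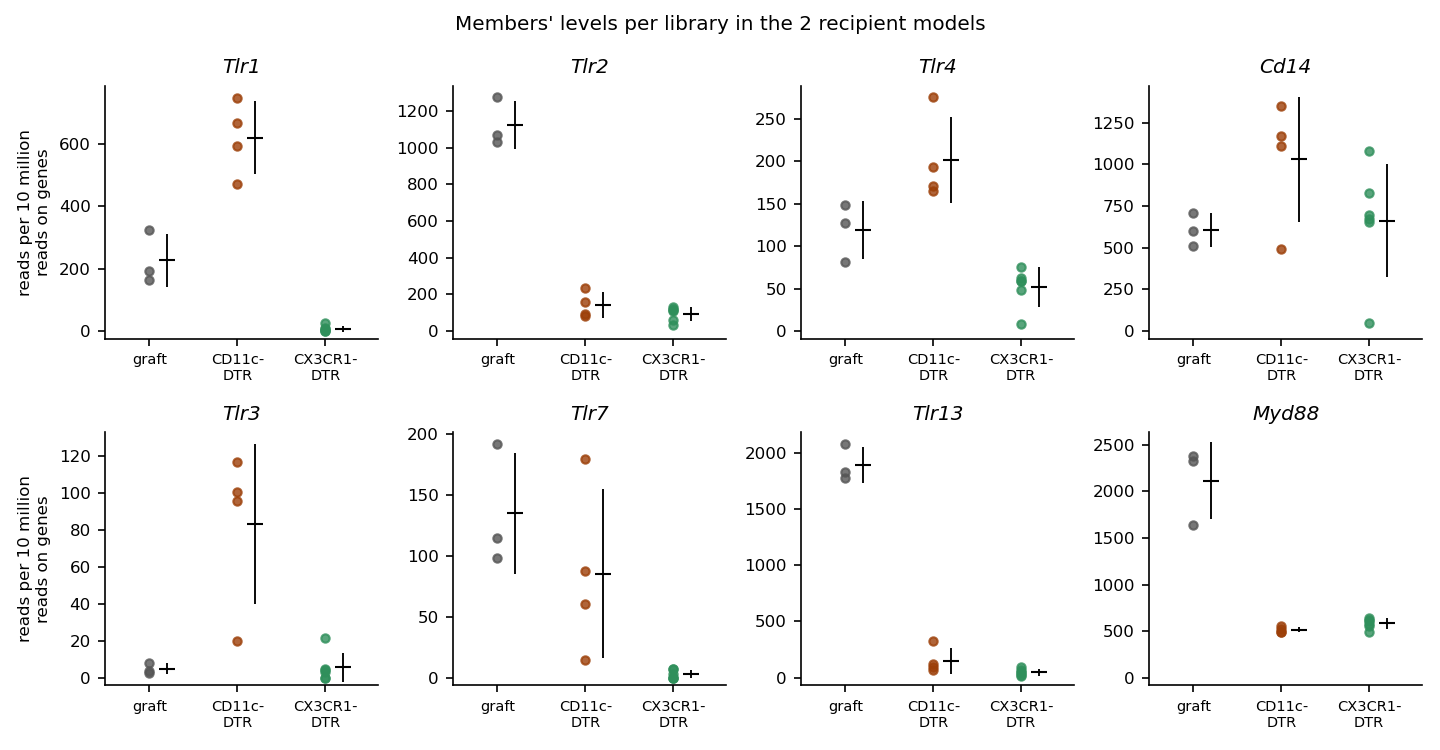
Reads per 10000000 reads on genes of the 8 tested genes in each library of the graft, CD11c-DTR colon day 12 and CX3CR1-DTR colon, with mean ± SD in black. Tlr1 and Tlr7 are at 0 to 26.08 and 0 to 7.11 in the CX3CR1-DTR libraries, while Myd88 there lies at 489.9 to 642, close to colon day 12 and below the graft, a direction that turns under scaling to macrophage markers.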

How the data were processed

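Sorted monocytes and macrophages (32 libraries) were sequenced by a derivation of MARS-seq, a 3′ end method. The authors aligned reads with HISAT 0.1.6 to NCBI37/mm9, kept unique reads and counted them on exons by strand with HOMER, of which no version was given. The deposited tables hold raw counts for 24411 and 24421 genes (24148 shared symbols). A collapse of molecular identifiers was not stated. The second table has 52 further unnamed columns, which were not used.

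Counts were scaled to 10000000 mapped reads, or to 10000000 reads on genes wherever CX3CR1-DTR libraries entered. Genes with 50 normalized reads in at least 3 libraries were tested (11842 over 25 libraries, 11718 over 13) with edgeR 4.0.16 (TMM, quasi-likelihood) in R 4.3.3, with Benjamini-Hochberg adjustment over all genes and a call at an adjusted p under 0.05. DESeq2 1.42.0 and an equal-variance test per gene, computed in R itself, were the other tests among the alternatives. The edgeR script was tested on simulated data. Replicates were numbered in accession order. The year in the title of ileum day 8 replicate 2 was read as a slip for the following year. This put the library in experiment 3 and in a day 8 pair with a colon library. Same-date pairs of colon and ileum deviated together on day 12 (correlations 0.18 to 0.52) but not in every pair on day 8 (0.05 to 0.28). The value of 0.05 is that of the pair with this library. The closest of 51 pairs of libraries of 1 group differed by a chi-square of 4.8 per degree of freedom, so all counted separately. Precision rests on 591817 to 5228664 reads on genes per library, and exact 95% intervals cover counting error only.

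The genes and lists were chosen with earlier results of these data known. Besides the 10 genes, the text names Tlr6, Tlr8, Tlr11, Tlr12, the pathway genes with the 3 largest called changes in each direction on day 12 in either segment, and for each tested gene the 2 genes most like it. Scalings to macrophage markers were chosen after seeing the data. Marker lists also covered T cells (1.94 to 4.84 normalized reads in the graft, 59.1 to 221 in the colon, 102 to 1007 in the ileum) and fibroblasts (0, 461 to 4657, 199 to 4634).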

Additional observations from a re-analysis of the deposited data

Results flagged for a closer look

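Single libraries far from the others of their group were found in 4 of 48 groups of 4 or 6 libraries looked at, and chance gives about 1 in 20. Tlr1 was at 26.08 reads per 10000000 in CX3CR1-DTR colon replicate 5, against 0 to 9.1 in the other 5 libraries. Tlr3 was at 21.3 in the same library, against 0 to 4.55. In ileum day 4 replicate 2 Tlr3 had 64 normalized reads (30 counts), against 35.7 to 36.9 in replicates 1, 3 and 4. These rest on 11, 4 and 5 counts, so their closeness is not a measure of the spread. In colon day 12 replicate 2 Tlr13 had 189.9, against 46.7 to 67.6.

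Differences between segments passed the edgeR test for Tlr13 on day 4 (−2.69 on the log2 scale, colon minus ileum), for Tlr1 (1.27), Tlr4 (1.17), Tlr7 (−1.93), Tlr13 (−2.71) and Myd88 (−1.05) on day 8, and for Tlr7 (−2.30), Tlr13 (−2.26) and Myd88 (−0.85) on day 12, of which Myd88 on both days and Tlr7 on day 8 turned under scaling to macrophage markers. Those of Tlr13 on each day and of Tlr7 on day 12 did not pass under that scaling. Differences between recipients, CX3CR1-DTR colon against colon day 12, passed for Tlr1 (−5.98), Tlr3 (−3.46), Tlr4 (−1.91), Tlr7 (−4.52) and Tlr13 (−1.66).

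The left-out colon day 8 replicate 1 was above the highest graft library for Tlr1 (362 against 229 normalized reads), Tlr3 (26.8 against 5.61), Tlr4 (188 against 105), Tlr9 (33.5 against 5.61) and Cd14 (1979 against 488). Its Cd14 and Tlr9 were also above those of the 3 other colon day 8 libraries (496 to 800.3 and 0 to 1.17), and its Tlr9 value rests on 5 counts.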

How the results depend on the processing

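The 52 called values of the 8 tested genes did not turn under any planned setting. When 1 library was left out, 1149 recomputed values stayed past the threshold and 28 did not, and under the other planned settings 395 did and 37 did not. Under the 2 scalings to macrophage and monocyte markers, chosen after seeing the data, 46 stayed, 31 no longer passed and 27 turned, and the cause was not tested. With Lyz2 the turned values were, for Myd88, 2.79, 2.11 and 2.05 from the graft to colon days 4, 8 and 12, 1.52, 0.62 and 0.61 to the ileal days, 2.96 to CX3CR1-DTR colon, and 1.49 and 1.44 colon minus ileum on days 8 and 12. They were 1.41, 1.28 and 0.98 for Tlr2 to the colonic days, 0.54 to ileum day 4 and 1.30 to CX3CR1-DTR colon, 0.25, 0.13 and 0.14 for Tlr13 to the ileal days, 0.50 for Tlr7 colon minus ileum on day 8, and 0.18 for Tlr1 to CX3CR1-DTR colon. Without Lyz2 they were, for Myd88, 1.37, 0.67 and 0.68 to the colonic days, 0.16 to ileum day 4, 1.45 to CX3CR1-DTR colon, and 1.23 and 1.37 colon minus ileum on days 8 and 12, and 0.21 for Tlr7 colon minus ileum on day 8. Of 108 uncalled values, 34 passed under some alternative and 64 changed sign.

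Of the counts of called genes among the 8, these moved by over 1.5 times. DESeq2 called 1 between ileum days 4 and 8 and 1 for the change of the colon to ileum difference from day 4 to 8, against 0. For colon minus ileum on day 4, against 1, there were 0 with all 4 colon day 8 libraries or the compared groups alone, and 3 with either marker scaling. The equal-variance test per gene on log2(normalized reads + 50) called 0 on days 4, 8 and 12 of that comparison, 2 from the graft to ileum day 8 and 4 to ileum day 12. Library totals gave 4 to ileum day 12, against 7. The marker scaling with Lyz2 gave 6 for colon minus ileum on day 12, 4 between ileum days 4 and 8, and 3 from colon day 12 to CX3CR1-DTR colon. Without Lyz2 these were 6, 2 and 3, with 2 and 3 from the graft to ileum days 8 and 12.

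A replicate block pairing colon and ileum by date and number gave 3 on day 8, against 5 (Tlr4 1.13, adjusted p 0.152, and Myd88 −0.94, adjusted p 0.082, no longer passed), and 3 on day 12 as without it. A replicate block by experiment changed no count by over 1.5 times.

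Leaving out 1 library gave 5 to 6 called genes from the graft to each colonic day, 5 to 6, 4 to 5 and 4 to 8 to the ileal days, 0 to 2 between ileum days 4 and 8, 0 to 1, 1 to 5 and 2 to 3 for colon minus ileum on days 4, 8 and 12, and 5 to 6 and 4 to 5 for CX3CR1-DTR colon against the graft and colon day 12.

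Over all genes, scaling to library totals moved the share of called genes that were above the graft from 57.9 to 62.8% down to 42.4 to 51.1% and the median change from 0.17 to 0.20 down to −0.35 to −0.04. For colon minus ileum the share higher in the colon moved from 15.5 to 26.2% on day 4 and from 48.5 to 66.2% on day 8. All-gene counts of calls ran from 0 to 3050 around 367 for colon minus ileum on day 4, from 0 to 994 around 609 between ileum days 4 and 8 and from 0 to 654 around 311 between days 4 and 12. Depth limits Tlr5, Tlr9 and, in CX3CR1-DTR colon, Tlr1, Tlr3 and Tlr7, which lie near 3 counts. It also limits Tlr3 in the graft (1 to 2 counts) and in ileum day 4, where the lowest library held 4 counts.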
